A study of Rattus norvegicus with 8 samples.

Results

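The collagens are the triple-helical proteins that build the fibers, networks and basement membranes of connective tissue. Their chains were taken from RNA-sequencing of rat nucleus pulposus (NP) cells, the cells of the soft center of the spinal disc, in which Sirt6 was knocked down. A chain was any row of the authors' table whose gene name had the form Col, a number, the letter a and a number, and its reads were taken from the count table by Ensembl identifier. There were 30 such chains among the 32975 rows of the count table, and 29 of them had enough reads to be tested, among 13250 tested genes. Col15a1 was the chain that did not pass.

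All 8 libraries came from primary NP cells of adult Sprague Dawley rats aged 3 to 6 months, grown in DMEM with 10% FBS, transduced with lentivirus carrying a short hairpin RNA and selected with puromycin. The 4 libraries S1 to S4 (Sirt6-Ctrl) had received a control hairpin, ShCtrl, and the 4 libraries S5 to S8 (Sirt6-KD) a mixture of 3 hairpin clones against Sirt6, ShSirt6. The gene was thus knocked down and not deleted. The series names 4 rats and speaks of knockdown cells and the controls that belong to them, but its labels tie no library to a rat, so the p-values measure the spread between these libraries, and no pairing of knockdown and control cells could be used.

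Each collagen molecule is a triple helix of 3 chains, made as a procollagen in the endoplasmic reticulum, where prolines and lysines are hydroxylated and a dedicated chaperone holds the folded helix. After secretion the propeptides are cut off and lysyl oxidases cross-link the molecules. Fibrillar collagens form the load-bearing fibers, fibril-associated collagens decorate their surface, collagen IV forms the sheet of basement membranes, collagen VI forms beaded filaments around cells, and collagen VIII forms hexagonal lattices. The healthy NP is rich in collagen II and proteoglycan, while collagen I is the main fiber of the surrounding annulus fibrosus. Col2a1, Col6a3 and Col9a3 were among 15 of the 45 chains of these classes that were not analysed here. Sirt6 encodes a histone deacetylase of the sirtuin family.

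Libraries held 31994838 to 40124813 counts. Reads of Sirt6 numbered 1755 to 1964 under ShCtrl and 695 to 753 under ShSirt6. In TMM-normalized CPM, the level used below, which sets reads against library size scaled by the trimmed mean of M-values, that is 52.7 ± 3.78 against 20.6 ± 1.07 (SD, n = 4 each), a log2 fold change of -1.35 (SE 0.14, edgeR adjusted p = 0.000713). The spike-in RNAs took 6.27% and 9.80% of the counts in S1 and S2, 3.08% and 2.97% in S3 and S4, and 2.15% to 2.47% in S5 to S8. The Sirt6-Ctrl libraries also resembled each other less, with pairwise Pearson correlations of log2 CPM of 0.889 to 0.941 across genes, against 0.966 to 0.972 among the Sirt6-KD libraries. When the libraries were scaled to the spike-ins, the median change over all genes, on the log2 scale, moved from -0.02 to 0.94, no collagen chain passed, and over all genes 20 were called higher and 4 lower, in place of 1063 and 1416. Under that scaling the 7 chains called below kept their sign, while Col1a1, Col1a2, Col5a1, Col6a1, Col6a2, Col8a2, Col9a2, Col11a1 and Col14a1 turned from negative to positive. The calls below are therefore relative to the bulk of the transcriptome. In bulk RNA, a change in the number of cells of a kind cannot be told apart from a change in RNA per cell.

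Of 18 symbols listed for NP and notochord markers, 9 had a named row. The 18 include alternative names of the same gene, T and Tbxt, Car3 and Ca3, and Car12 and Ca12. The summed level of the 9 was 341 to 445 CPM in Sirt6-Ctrl and 405 to 489 CPM in Sirt6-KD. Basp1 was its largest part, at 136 to 228 CPM over all libraries. Car12 had means of 28.4 and 82.1 CPM and was not called. Of the 9, 4 had a positive and 5 a negative log2 fold change. Acan, the core protein of aggrecan, had 4.54 to 55.7 CPM in Sirt6-Ctrl and 9.80 to 18.7 CPM in Sirt6-KD. Krt8, a keratin of notochordal cells, had 3.74 to 10.7 CPM and 2.24 to 3.30 CPM, and it and Car3 were the 2 of 9 tested markers that fell, at log2 fold changes of -1.32 and -2.70 (22.2%, beside 10.7% of all tested genes). The notochordal factor Foxa2 had no reads in S1 and S4 and at most 1.67 CPM in the other libraries, and Krt18, Krt19, T, Shh and Noto were not analysed here. Markers of smooth muscle and myofibroblasts, led by Tagln and Acta2, were detected for 7 of 7 genes, with a summed level of 395 to 2740 CPM in Sirt6-Ctrl and 1010 to 2320 CPM in Sirt6-KD. Of 7 endothelial markers only Tek had a named row, at no more than 0.592 CPM. The summed levels in Sirt6-Ctrl and Sirt6-KD were 609 to 1940 and 569 to 1100 CPM for markers of annulus fibrosus and tendon, 30.5 to 86.3 and 24.4 to 37.9 CPM for chondrocytes, 1490 to 3860 and 981 to 2280 CPM for osteoblasts and hypertrophic chondrocytes, and 11.9 to 29.7 and 14.96 to 23.9 CPM for leukocytes. The osteoblast sum was mostly 1 gene, Spp1, with 1469 to 3840 CPM in Sirt6-Ctrl and 951 to 2249 CPM in Sirt6-KD. Alpl and Ibsp of the same list reached at most 3.05 CPM. Tnc and Thy1 were the largest parts of the annulus sum, with 1175 and 566 CPM in S4. Of 8 leukocyte symbols, 3 had a named row, and Cd14 was the largest part of their sum, at 9.80 to 26.95 CPM. Cd68 and Csf1r reached at most 4.75 and 0.971 CPM. S4 held the highest annulus, chondrocyte and osteoblast sums of Sirt6-Ctrl, and S8 those of Sirt6-KD. The part of these markers in the results was not tested.

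The collagen reads were mostly Col1a1, the main chain of collagen I. Collagen chains together took 2.5%, 1.90%, 2.49% and 4.03% of the gene counts in S1 to S4, and 1.97%, 1.83%, 1.75% and 3.06% in S5 to S8. The shares of the groups overlapped, at 2.73% ± 0.911 and 2.15% ± 0.611 (SD, n = 4 each), a difference of -0.577 percentage points that shrank to -0.144 without S4. Within the collagen reads, Col1a1 made up 67.3%, 66.1%, 58.4% and 66.3% in Sirt6-Ctrl and 53.5%, 50.2%, 48.7% and 59.4% in Sirt6-KD, so the S8 value lay above the S3 value. Collagen reads other than Col1a1 took 0.963% ± 0.307 of gene counts in Sirt6-Ctrl and 0.992% ± 0.167 in Sirt6-KD. Col3a1 made up 4.07% ± 0.261 of the collagen reads in Sirt6-Ctrl and 1.99% ± 0.150 in Sirt6-KD, while Col5a2 made up 8.91% ± 1.85 and 15.7% ± 1.89, and neither chain's groups overlapped. Col8a1 made up 1.09% ± 0.563 and 3.17% ± 0.579, again without overlap. These shares are parts of the same total, so a lower share of Col1a1 means a higher joint share of the other chains. In CPM, the groups of Col5a2 and of Col8a1 overlapped, and neither chain was called. The shares are sums over chosen genes and were not tested. Reads per chain depend on transcript length, which was not available, so chains are not ranked here against each other by expression.

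**Figure D1:**
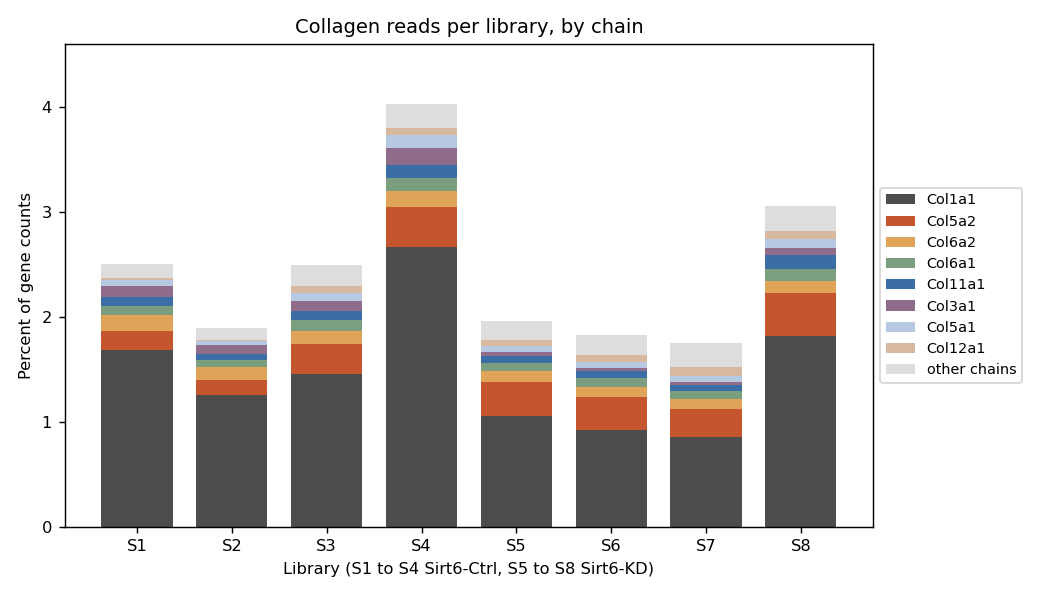
Percent of each library's gene counts (vertical axis) that were collagen reads, stacked by chain, in the 4 Sirt6-Ctrl libraries S1 to S4 and the 4 Sirt6-KD libraries S5 to S8. S4 stands highest at 4.03% and S8 next at 3.06%, and the dark Col1a1 block is the largest part of every bar.

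S4 and S8 stood out within their groups. Over the 29 tested chains, S4 was the highest Sirt6-Ctrl library for 18 and S2 the lowest for 14. Among the Sirt6-KD libraries, S8 was the highest for 16 chains and S7 for 10. S4 and S8 also held the most Acta2, the smooth muscle actin of contractile fibroblasts, with 1048 and 583 CPM, against 19.8 to 76.2 CPM in the other Sirt6-Ctrl and 83.8 to 128 CPM in the other Sirt6-KD libraries. The part of this marker in the chain levels was not tested. The chain results were repeated without S4 and S8, an alternative chosen after these values were seen, and 2 chains were then called higher and 4 lower.

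**Figure D2:**
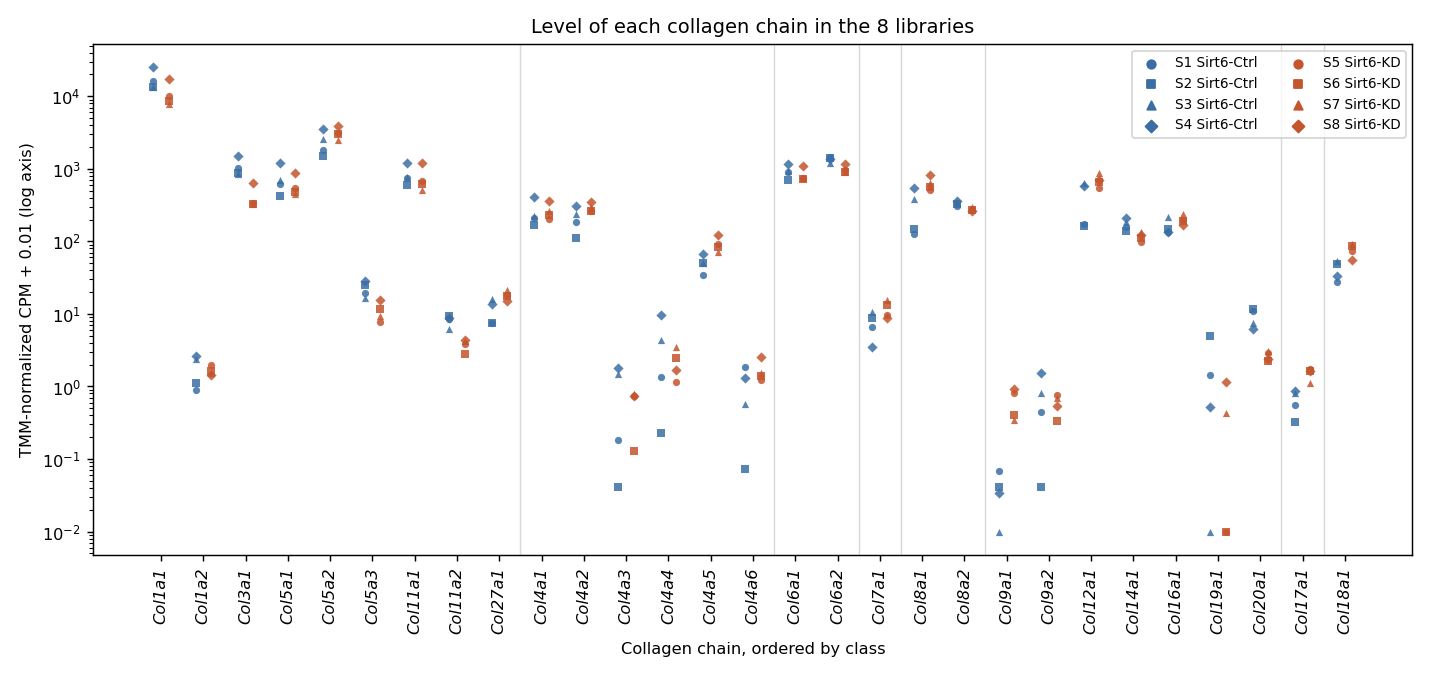
Level of each of the 29 tested chains in each library, as TMM-normalized CPM plus 0.01 on a log axis, with the chains on the horizontal axis ordered by collagen class. Blue marks are Sirt6-Ctrl and red marks Sirt6-KD, and the diamonds of S4 and S8 are often the highest of their color.

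Whether Sirt6 knockdown changed the collagen program was asked chain by chain. Of the 29 tested chains, 3 were higher and 4 lower in Sirt6-KD by edgeR's quasi-likelihood test at an adjusted p under 0.05 and a fold over 1.5. That is 10.3% and 13.8% of the chains, beside 8.02% and 10.7% of all tested genes (18.7% in either direction), which are shares near those of the background. The chains called higher were Col4a5, Col18a1 and Col9a1, of which Col9a1 passed the count filter only through the knockdown libraries, and those that fell were Col3a1, Col5a3, Col11a2 and Col20a1. Of the other 22, 10 had a positive and 12 a negative log2 fold change. The groups did not overlap in CPM for 11 of the 29 chains, 4 higher and 7 lower in Sirt6-KD, beside 14.8% and 15.6% of all genes (30.4% in either direction). Col9a1 is among the 4, with the same limit from the count filter. With no limit on the fold, Col6a2 and Col14a1 also passed, which made 3 higher and 6 lower, beside 9.11% and 12.8% of all genes (21.9% in either direction). The chains had a median log2 fold change of -0.14, beside -0.02 for all genes, and it turned to 0.17 without S4 and to 0.12 by limma-voom. Counts of calls without single libraries ran from 0 to 4 for higher and from 2 to 5 for lower chains, and the libraries that decide a chain are named beside it.

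**Figure D3:**
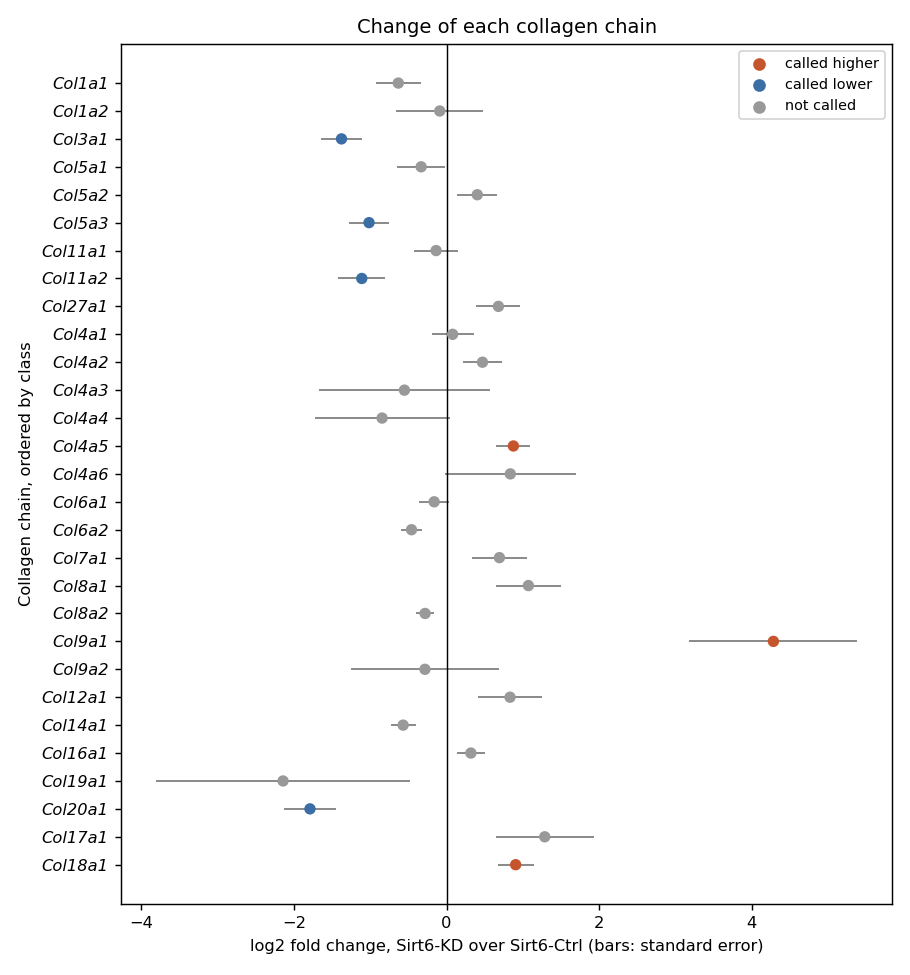
Log2 fold change of each tested chain, Sirt6-KD over Sirt6-Ctrl (horizontal axis), with its standard error as a bar and chains ordered by class. Red points were called higher (Col4a5, Col9a1 and Col18a1), blue points lower (Col3a1, Col5a3, Col11a2 and Col20a1) and grey points were not called.

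The fibrillar class held 9 tested chains, of which 3 fell and none rose (33.3% lower, beside 10.7% of all genes). A negative log2 fold change was found for 7, among them Col1a2, a row of doubtful counting described below. Col3a1 (ENSRNOG00000003357), the only chain of the homotrimeric collagen III that shares fibrils with collagen I, had 1034, 877, 850 and 1515 CPM in S1 to S4 and 343, 332, 331 and 641 CPM in S5 to S8. Every Sirt6-KD library lay below every Sirt6-Ctrl library. The mean fell from 1069 ± 308 to 412 ± 153 CPM (SD, n = 4 each), a log2 fold change of -1.38 (SE 0.27, edgeR adjusted p = 0.00812), and the call was kept without any single library.

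The minor chains of collagens V and XI, which sit inside the fibers and limit their width, gave the other calls of this class. Col5a3 (ENSRNOG00000020525), a chain of collagen V, had 19.3, 24.7, 16.5 and 28.5 CPM in Sirt6-Ctrl and 7.76, 11.5, 9.31 and 15.5 CPM in Sirt6-KD. The groups were close but did not overlap, and the log2 fold change was -1.02 (SE 0.27, edgeR adjusted p = 0.0242). Col11a2 (ENSRNOG00000000463), a chain of the cartilage collagen XI, had 8.53, 9.43, 6.12 and 8.65 CPM in Sirt6-Ctrl and 3.85, 2.81, 4.17 and 4.32 CPM in Sirt6-KD. Here too no library crossed into the other group's range, and the log2 fold change was -1.11 (SE 0.31, edgeR adjusted p = 0.0277). Neither call was firm. The edgeR adjusted p for Col5a3 rose above 0.05 without S1, S4, S5, S6 or S7 in turn, to at most 0.0782. That for Col11a2 did so without S1, S4 or any single Sirt6-KD library, to at most 0.0893. Leaving out both S1 and S2, the libraries richest in spike-ins, gave 0.0573 and 0.0663, and Col11a2 also missed with no filter on counts (0.0547) and without S4 and S8 (0.0964).

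The fibrillar chains with the most reads were not called. Col1a1 had 16400, 13470, 13290 and 25210 CPM in Sirt6-Ctrl and 10030, 8674, 7961 and 17460 CPM in Sirt6-KD. S8 lay above S1, S2 and S3, so the groups overlapped, and the log2 fold change was -0.63 (SE 0.30, edgeR adjusted p = 0.150). Without S4 and S8 it was -0.68 with an adjusted p of 0.0463. Col5a2, a chain of collagen V, had 1807, 1520, 2570 and 3590 CPM in Sirt6-Ctrl and 3155, 3021, 2464 and 3906 CPM in Sirt6-KD, with a log2 fold change of 0.40 (SE 0.26, edgeR adjusted p = 0.30). Its groups overlapped. Col5a1, its usual partner, had 612, 420, 709 and 1223 CPM against 537, 480, 457 and 880 CPM, a log2 fold change of -0.33 (SE 0.32, adjusted p = 0.488). Col11a1, the partner of Col11a2, had 750, 601, 773 and 1192 CPM against 682, 626, 508 and 1201 CPM, with the lowest and the highest values both in Sirt6-KD. Col27a1, a fibrillar chain of cartilage, had means of 11.3 and 18.1 CPM, a log2 fold change of 0.68 and an edgeR adjusted p of 0.114 that fell to 0.0350 without S3.

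Col1a2, which joins Col1a1 in the usual collagen I trimer, is a row of doubtful counting in these files. It had 31 to 107 reads per library, where Col1a1 had 290419 to 1040124. Its means were 1.75 ± 0.868 and 1.64 ± 0.213 CPM (SD, n = 4 each), with an adjusted p of 0.931. How the reads of this gene were assigned was not tested, and its value is not read as the level of the chain. The row is still counted among the tested chains and used in the ratio of Col1a1 to Col1a2, which share that doubt.

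In the basement membrane class, of the 6 tested collagen IV chains, 1 rose and none fell (16.7% higher, beside 8.02% of all genes), and 4 had a positive log2 fold change. Col4a5 (ENSRNOG00000018951), encoded on the X chromosome and part of a restricted collagen IV network, had 34.5, 50.9, 49.98 and 67.1 CPM in Sirt6-Ctrl and 92.7, 82.5, 72.1 and 124 CPM in Sirt6-KD. Every Sirt6-KD library was above every Sirt6-Ctrl library, with S4 and S7 nearest each other. The mean rose from 50.6 ± 13.3 to 92.9 ± 22.6 CPM (SD, n = 4 each), a log2 fold change of 0.88 (SE 0.22, edgeR adjusted p = 0.0211). The adjusted p rose to between 0.0506 and 0.0580 without S1, S5, S6 or S8 in turn, and to 0.0796 without S1 and S2 together.

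Col4a1 and Col4a2, which form the common collagen IV trimer, were not called. Their means were 250.5 ± 104.5 and 264.7 ± 72.0 CPM for Col4a1 and 210.8 ± 82.3 and 292 ± 41.9 CPM for Col4a2 (SD, n = 4 each), with log2 fold changes of 0.08 (adjusted p = 0.867) and 0.47 (adjusted p = 0.218) by edgeR. Col4a3, Col4a4 and Col4a6 had mean levels of 0.591 to 3.92 CPM and varied widely between libraries, with 1 to 74 reads for Col4a3, 7 to 404 for Col4a4 and 2 to 87 for Col4a6. Their log2 fold changes had standard errors of 0.86 to 1.12 and did not pass.

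Collagen IV genes lie head to head, so that a pair of chains is read in opposite directions from a shared promoter. Promoter windows of 300 bases, from 250 before to 50 after the annotated start, were taken from RefSeq on assembly GRCr8, which is not the build of the count files (Rnor_6.0). The starts of Col4a1 and Col4a2 lay 77 bases apart and their windows shared 176 bases, and those of Col4a3 and Col4a4 lay 413 bases apart and shared 88. The windows of the shared promoter are shown, with that of the chain that rose, Col4a5. Each is written 5′ to 3′ on the gene's own strand, Col4a1 at chr16:84885347-84885646 (plus strand), Col4a2 at chr16:84885471-84885770 (minus strand) and Col4a5 at chrX:109907109-109907408 (plus strand). Capitals mark the GC box GGGCGG and the CCAAT box CCAAT, on either strand.
Col4a1: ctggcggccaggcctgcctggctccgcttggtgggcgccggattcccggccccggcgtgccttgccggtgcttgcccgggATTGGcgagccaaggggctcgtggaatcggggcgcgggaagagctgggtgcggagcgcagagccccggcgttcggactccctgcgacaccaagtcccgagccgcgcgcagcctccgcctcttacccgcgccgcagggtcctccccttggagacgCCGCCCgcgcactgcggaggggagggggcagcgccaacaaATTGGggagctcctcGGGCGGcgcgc
Col4a2: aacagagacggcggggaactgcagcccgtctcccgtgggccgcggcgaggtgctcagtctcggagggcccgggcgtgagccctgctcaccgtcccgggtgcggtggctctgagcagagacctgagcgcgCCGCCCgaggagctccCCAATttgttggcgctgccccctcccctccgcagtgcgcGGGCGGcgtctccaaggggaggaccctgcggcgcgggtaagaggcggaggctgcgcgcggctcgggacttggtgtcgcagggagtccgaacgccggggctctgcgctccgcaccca
Col4a5: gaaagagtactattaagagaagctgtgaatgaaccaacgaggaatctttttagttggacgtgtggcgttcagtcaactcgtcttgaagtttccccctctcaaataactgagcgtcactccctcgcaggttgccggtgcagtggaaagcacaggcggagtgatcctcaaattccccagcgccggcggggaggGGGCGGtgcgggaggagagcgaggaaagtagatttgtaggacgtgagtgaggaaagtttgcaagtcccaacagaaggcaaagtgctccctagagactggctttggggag

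The window of Col4a1 held 2 GC boxes and 2 CCAAT boxes, and that of Col4a2 held 2 GC boxes and 1 CCAAT box. All the marked sites of Col4a2 lie in the shared bases and are the same sites as in the Col4a1 window. The Col4a5 window had 1 GC box and no CCAAT box, and 53.3% of its bases were G or C, against 75% for Col4a1 and 73.7% for Col4a2. A match to such a motif describes the letters in the window and not the binding of a factor.

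Collagen VI gave 2 chains, which form the beaded filaments of the matrix around each cell. Col6a2 had 1443, 1394, 1199 and 1365 CPM in Sirt6-Ctrl and 961, 904, 897 and 1165 CPM in Sirt6-KD. No Sirt6-KD library reached the lowest Sirt6-Ctrl library, and the log2 fold change was -0.46 (SE 0.14, edgeR adjusted p = 0.0406), which stayed under the fold of 1.5 and turned to 0.54 with spike-in scaling. Col6a1, which pairs with it, had 898, 711, 940 and 1165 CPM against 744, 734, 738 and 1104 CPM. The groups of Col6a1 overlapped, with a log2 fold change of -0.16 (SE 0.19, adjusted p = 0.588).

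Collagen VIII is a short-chain network collagen, and neither of its chains was called. Col8a1 had 126, 147, 385 and 547 CPM in Sirt6-Ctrl and 504, 561, 648 and 821 CPM in Sirt6-KD. S1, S2 and S3 lay below the knockdown range, while S4 lay within it. The log2 fold change was 1.07 (SE 0.42) and did not pass by edgeR (adjusted p = 0.0919), but did so without S4 (log2 fold change 1.53, adjusted p = 0.0225), by DESeq2 (adjusted p = 0.0308) and by limma-voom (adjusted p = 0.0366). Col8a2 had 307, 325, 353 and 364 CPM in Sirt6-Ctrl and 277, 275, 293 and 265 CPM in Sirt6-KD. The groups did not overlap, but the log2 fold change of -0.28 (SE 0.12) did not pass (edgeR adjusted p = 0.104).

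The promoter windows of both chains are shown to set beside these values, Col8a1 at chr11:56246532-56246831 (plus strand) and Col8a2 at chr5:143870519-143870818 (plus strand) on GRCr8, with GC boxes in capitals. Col8a1 held 4 and Col8a2 held 5, of which 2 overlap each other, and neither held a CCAAT box.
Col8a1: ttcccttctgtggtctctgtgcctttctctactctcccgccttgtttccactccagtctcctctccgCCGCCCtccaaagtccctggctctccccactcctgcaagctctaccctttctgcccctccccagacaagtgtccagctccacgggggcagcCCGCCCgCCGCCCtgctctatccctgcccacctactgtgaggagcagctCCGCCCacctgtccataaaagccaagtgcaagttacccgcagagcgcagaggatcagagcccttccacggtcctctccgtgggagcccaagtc
Col8a2: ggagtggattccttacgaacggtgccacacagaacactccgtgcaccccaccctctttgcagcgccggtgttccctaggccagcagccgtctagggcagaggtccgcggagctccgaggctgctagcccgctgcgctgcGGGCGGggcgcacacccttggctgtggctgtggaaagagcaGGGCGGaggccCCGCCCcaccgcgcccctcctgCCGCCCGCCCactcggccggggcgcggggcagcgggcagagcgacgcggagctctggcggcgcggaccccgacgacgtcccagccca

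Fibril-associated chains, which bind to the surface of fibers, gave 1 call in each direction. Of 7 tested, Col9a1 was called higher and Col20a1 lower (14.3% each, beside 8.02% and 10.7% of all genes). The higher share rests on Col9a1 alone, which passed the count filter only through the Sirt6-KD libraries and had to differ. Col20a1 (ENSRNOG00000010326) had 10.98, 11.8, 7.57 and 6.23 CPM in Sirt6-Ctrl and 2.87, 2.24, 3.10 and 2.37 CPM in Sirt6-KD. The groups were well apart, and the mean fell from 9.15 ± 2.69 to 2.64 ± 0.408 CPM (SD, n = 4 each), a log2 fold change of -1.79 (SE 0.34, edgeR adjusted p = 0.00726). It was the chain that also passed a test against the fold of 1.5 itself, and its call was kept without any single library.

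Col9a1 (ENSRNOG00000012920), a chain of the cartilage collagen IX, was close to absent in the control cells, with 2, 1, 0 and 1 reads in S1 to S4. It had 28, 13, 13 and 31 reads in S5 to S8. Since it passed the count filter through the Sirt6-KD libraries alone, it had to differ between groups, and its call is not counted as support for a rise of the family. Against a floor of 3 reads per Sirt6-Ctrl library, Col9a1 was at least 7.22-fold higher in Sirt6-KD (edgeR adjusted p = 0.0217). All 4 knockdown libraries were above all 4 control libraries, at 0.614 ± 0.293 CPM on average. The adjusted p rose to between 0.0552 and 0.0724 without any single Sirt6-KD library, to 0.0544 without S1 and S2 and to 0.110 without S4 and S8. With no filter on counts it was 0.0530, and at a minimum of 1 CPM in 4 libraries Col9a1 was not tested, so that 2 chains were called higher under either filter. Its partner Col9a2 had 1 to 63 reads per library, means of 0.696 and 0.573 CPM, and an adjusted p of 0.867.

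Among the fibril-associated chains with more reads, Col14a1, found on collagen I fibers of tendon and skin, had 156, 141, 186 and 213 CPM in Sirt6-Ctrl and 97.4, 111, 137 and 124 CPM in Sirt6-KD. These ranges did not overlap, and the log2 fold change of -0.57 (SE 0.16, edgeR adjusted p = 0.0317) fell just short of the fold of 1.5, and turned to 0.29 with spike-in scaling. Without S2 it was -0.64 and was called. The related Col12a1 had 175, 166, 644 and 589 CPM in Sirt6-Ctrl and 546, 659, 887 and 710 CPM in Sirt6-KD. S1 and S2 were far below the other 6 libraries, and the log2 fold change of 0.83 (SE 0.42) did not pass (adjusted p = 0.184). Col16a1 had means of 159 and 198.5 CPM (adjusted p = 0.239). Col19a1 had 0 to 159 reads, most of them in S2, and an adjusted p of 0.384 by edgeR.

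The remaining chains were those of the multiplexin, anchoring fibril and transmembrane classes. Col18a1 (ENSRNOG00000001229), a basement membrane proteoglycan whose C-terminal fragment is endostatin, had 27.2, 48.5, 54.3 and 33.7 CPM in Sirt6-Ctrl and 74.7, 85.2, 91.4 and 55.2 CPM in Sirt6-KD. The highest control library, S3, and the lowest knockdown library, S8, nearly met. The mean rose from 40.9 ± 12.6 to 76.6 ± 15.9 CPM (SD, n = 4 each), a log2 fold change of 0.91 (SE 0.24, edgeR adjusted p = 0.0237). The adjusted p rose to between 0.0566 and 0.0765 without S1, S5, S6 or S7 in turn, and to 0.0632 without S1 and S2 together. Col15a1, the other member of this class, had 0, 3, 5 and 71 reads in S1 to S4 and 0, 0, 2 and 0 in S5 to S8, so its reads came almost entirely from S4. Col7a1, the anchoring fibril chain of epithelia, had means of 7.37 and 11.9 CPM (edgeR adjusted p = 0.188). The transmembrane chain Col17a1 had 10 to 35 reads in Sirt6-Ctrl and 43 to 60 in Sirt6-KD, without overlap, and its log2 fold change of 1.29 (SE 0.64) did not pass (adjusted p = 0.174).

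To compare chains without depending on how libraries were scaled, the log2 ratio of reads of a chain to those of a partner was taken within each library, for 15 pairs that share a molecule, a class or a fibril. With 4 libraries against 4, an exact two-sided permutation test cannot give a p below 0.0286, and after adjustment over the 15 pairs the smallest was 0.107, so no pair passed. In 4 of the 15 pairs the groups did not overlap. No share over other pairs of genes was taken to set beside this count. In CPM, the groups did not overlap for 30.4% of all tested genes. The Col3a1 to Col1a1 ratio varied little within groups, at -3.99, -3.94, -3.97 and -4.06 in Sirt6-Ctrl and -4.87, -4.71, -4.59 and -4.77 in Sirt6-KD. Its mean difference was -0.75 (SD 0.05 and 0.12), a 1.68-fold lower ratio, with the smallest exact p of 0.0286 and an adjusted p of 0.107. S4 and S8, the libraries with the most Col1a1, did not stand apart in this ratio.

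The other 3 such pairs had the same exact p of 0.0286 and adjusted p of 0.107 by the permutation test. Col5a1 to Col5a2 was -1.56, -1.86, -1.86 and -1.55 in Sirt6-Ctrl and -2.56, -2.65, -2.43 and -2.15 in Sirt6-KD, a difference of -0.74 (SD 0.17 and 0.22). Col8a1 to Col8a2 was -1.29, -1.15, 0.12 and 0.59 against 0.87, 1.03, 1.14 and 1.63, a difference of 1.60 or 3.03-fold (SD 0.93 and 0.33). The control libraries were split, with S1 and S2 below 0 and S3 and S4 above it. Col14a1 to Col12a1 showed the same split, at -0.16, -0.23, -1.79 and -1.47 in Sirt6-Ctrl and -2.49, -2.57, -2.70 and -2.52 in Sirt6-KD, a difference of -1.65 (SD 0.84 and 0.09). For this pair the knockdown libraries were nearly alike. Of the 11 pairs that overlapped, the exact p was 0.0571 for Col4a1 to Col4a2, Col4a5 to Col4a1, Col9a1 to Col9a2 and Col12a1 to Col1a1, and 0.0857 to 0.800 for the rest. The Col6a1 to Col6a2 difference was 0.30 (exact permutation p = 0.229).

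**Figure D4:**
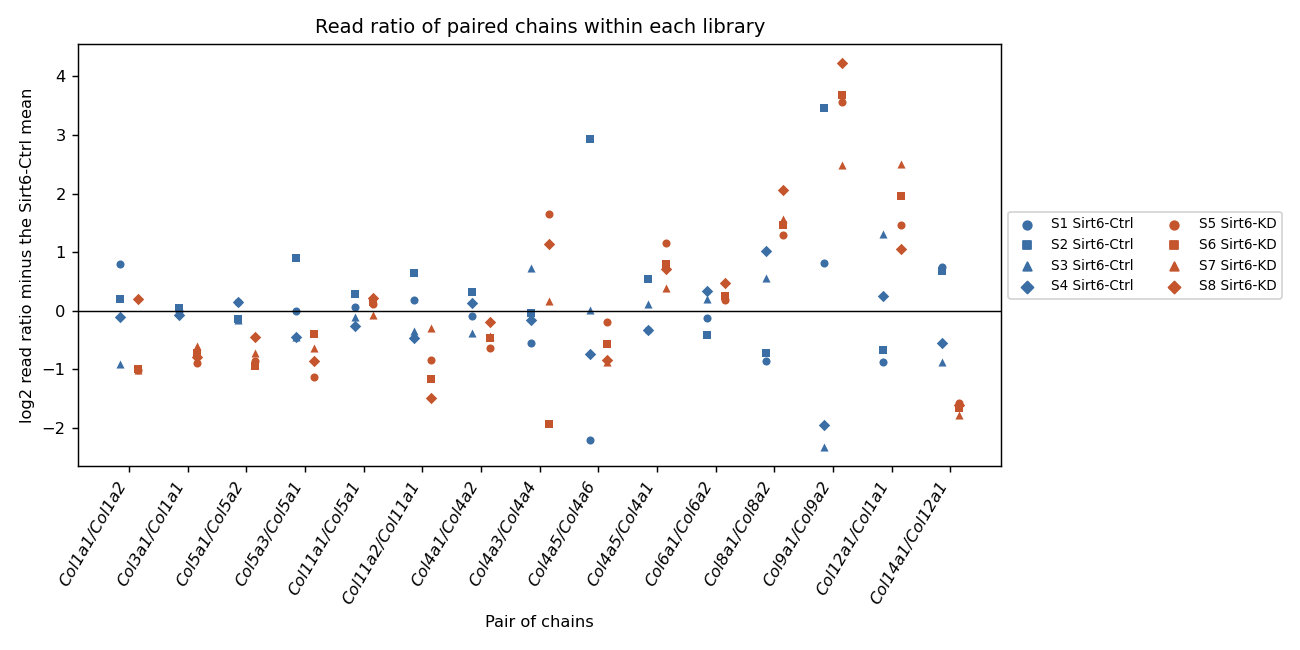
Log2 read ratio of 15 pairs of chains in each library, with the Sirt6-Ctrl mean of each pair set to 0 (vertical axis). For Col3a1/Col1a1 the blue control points are tightly bunched and all red knockdown points lie below them, and for Col8a1/Col8a2 all red points lie above the spread of blue ones.

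Genes that make, process, degrade, bind and regulate collagen were listed apart from the chains. Over the 89 genes of these lists, 72 were tested, of which 10 rose and 12 fell, that is 13.9% and 16.7%, beside 8.02% and 10.7% of all tested genes. The 10 include Mmp1, which passed the count filter only through the Sirt6-KD libraries and so had to differ between groups. They also include Itga2, which needed the Sirt6-KD libraries to pass that filter. No list was tested as a whole or against another. Of 29 tested genes of biosynthesis and cross-linking, 1 rose and 8 fell (3.45% and 27.6%, beside the same 8.02% and 10.7%), with a median log2 fold change of -0.36, beside -0.02 for all genes. Called or not, 11 of the 29 had a positive and 18 a negative log2 fold change. Of 9 tested receptors, 3 rose and none fell (33.3% higher, beside 8.02%), with a median of 0.49. Itga2, with its limit from the count filter, is 1 of the 3.

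The collagen-specific chaperone Serpinh1 (Hsp47) had 2157, 2294, 1324 and 2043 CPM in Sirt6-Ctrl and 765, 703, 696 and 1007 CPM in Sirt6-KD. Its groups did not overlap, and the log2 fold change was -1.30 (SE 0.20, edgeR adjusted p = 0.00401). P3h4, a partner of the lysyl hydroxylase complex, had 145, 198, 96.9 and 168 CPM against 46.3, 49.7, 49.5 and 78.5 CPM, a log2 fold change of -1.44 (SE 0.24, adjusted p = 0.00481). P4hb, the beta subunit of prolyl 4-hydroxylase and a disulfide isomerase, fell from 3938 ± 520 to 2431 ± 123 CPM (log2 fold change -0.70, SE 0.15, edgeR adjusted p = 0.0109), a change that turned to 0.34 with spike-in scaling. The other 5 that fell were P3h1, Colgalt1, Vkorc1, Gorasp2 and Sparc, which act in hydroxylation, glycosylation, vitamin K recycling, Golgi structure and extracellular collagen binding. P4ha2, an alpha subunit of prolyl 4-hydroxylase, rose from 386 ± 55.6 to 616 ± 60.9 CPM (log2 fold change 0.67, SE 0.14, adjusted p = 0.0117). P4ha1 and the lysyl oxidase Lox had log2 fold changes of 0.79 and 0.65, with groups that did not overlap. Neither passed (edgeR adjusted p = 0.051 and 0.0527). The calls of Serpinh1, P3h4 and P4ha2 were kept without any single library, and P4hb stayed at -0.52 (adjusted p = 0.0197), under the fold, without S1 and S2.

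Of 5 tested genes of procollagen processing, 2 fell and none rose (40% lower, beside 10.7% of all genes). Pcolce, the enhancer of the C-propeptide cleavage, fell from 686 ± 130 to 314 ± 61.8 CPM (SD, n = 4 each; log2 fold change -1.13, SE 0.19, edgeR adjusted p = 0.00476). Adamts2, an N-propeptidase of procollagens I to III, fell from 22.03 ± 7.27 to 8.85 ± 3.45 CPM (log2 fold change -1.32, SE 0.32, adjusted p = 0.0183). The call of Adamts2 was lost without S5 or S6 (adjusted p = 0.0571 and 0.0641), without S1 and S2 (0.0772) and without S4 and S8 (0.0583), and that of Pcolce was kept without any single library. Bmp1, the C-propeptidase itself, had a log2 fold change of -0.33 and did not pass (adjusted p = 0.138).

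Among 12 tested genes of degradation and uptake, 2 were called higher and 1 lower (16.7% and 8.33%, beside 8.02% and 10.7% of all genes), with a median of -0.18. Ctsk, the collagen-cleaving lysosomal protease cathepsin K, fell from 30.4 ± 6.09 to 8.60 ± 3.29 CPM (SD, n = 4 each; log2 fold change -1.82, SE 0.30, edgeR adjusted p = 0.00459). The collagenase Mmp1 had 1, 0, 0 and 0 reads in Sirt6-Ctrl and 28, 10, 34 and 12 in Sirt6-KD, at least 6.91-fold higher against the floor of 3 reads per library (adjusted p = 0.0136, and 0.0530 without S7). Like Col9a1 it passed the count filter through the knockdown libraries alone, and at 1 CPM in 4 libraries it was not tested. Prep, a prolyl endopeptidase of short peptides, rose by a log2 fold change of 0.66 (SE 0.13, adjusted p = 0.00893). Mmp13 had means of 89.0 and 424 CPM and did not pass (adjusted p = 0.0550).

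The receptors that rose were the collagen-binding integrin chains Itga1 and Itga2 and the matrix receptor Cd44. Itga1 had 25.0, 23.9, 44.2 and 68.6 CPM in Sirt6-Ctrl and 75.5, 77.6, 81.7 and 130 CPM in Sirt6-KD, with a log2 fold change of 1.17 (SE 0.33, edgeR adjusted p = 0.0313). Itga2 had 5, 8, 218 and 67 reads against 586, 475, 1175 and 547, a log2 fold change of 3.21 (SE 0.94, adjusted p = 0.0343). Reads of Itga2 in S1 and S2 were too few for the control libraries alone to pass it through the count filter. Neither receptor's groups overlapped, but both calls were lost without S1 or any single Sirt6-KD library, with adjusted p up to 0.0900 and 0.0945. That of Itga1 was also lost without S2 (0.0536) and without S1 and S2 together (0.108), and that of Itga2 without S4 (0.0667) and without S4 and S8 (0.114). Without single libraries the log2 fold change of Itga2 ran from 2.83 to 4.82, the latter without S3. Cd44 had means of 661 and 1013 CPM (log2 fold change 0.62, SE 0.14, adjusted p = 0.0136), and without S4 (0.56), S6 or S7 (adjusted p = 0.0530 and 0.0516) it was not called. The receptor kinases Ddr1 and Ddr2 had log2 fold changes of 0.57 (adjusted p = 0.0254, under the fold) and 0.40 (adjusted p = 0.146).

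Of 17 tested regulators of collagen genes, 4 rose and 1 fell (23.5% and 5.88%, beside 8.02% and 10.7% of all genes). Smad3, a transcription factor of TGF-beta signaling, rose from 121 ± 48.0 to 311 ± 27.7 CPM (SD, n = 4 each; log2 fold change 1.37, SE 0.24, edgeR adjusted p = 0.00580), and the early growth response factor Egr1 from 160 ± 21.9 to 288 ± 11.4 CPM (0.84, SE 0.13, adjusted p = 0.00401). Runx2, a factor of osteoblasts and hypertrophic chondrocytes, rose with a log2 fold change of 0.83 (SE 0.21, adjusted p = 0.0208), and was not called without S1, S5, S6 or S7 (adjusted p up to 0.0686). Of the other tested markers of those cells, Alpl fell (-2.92, SE 0.61, adjusted p = 0.0105), and Spp1 (-0.70) and Ibsp (-0.39) did not pass. The general factor Sp1 was the other regulator that rose. Scx, a tendon and annulus factor that drives Col1a1, fell (-1.20, SE 0.39, adjusted p = 0.0490), with overlapping groups. Its call was lost with RLE or upper-quartile factors, with the spike-in rows removed, by limma-voom and without S1, S2, S4, S5, S6 or S7 in turn, where the adjusted p reached 0.133 at most. The ligands Tgfb1, Tgfb2 and Tgfb3 did not pass, with log2 fold changes of -0.39, -0.02 and 0.14.

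**Figure D5:**
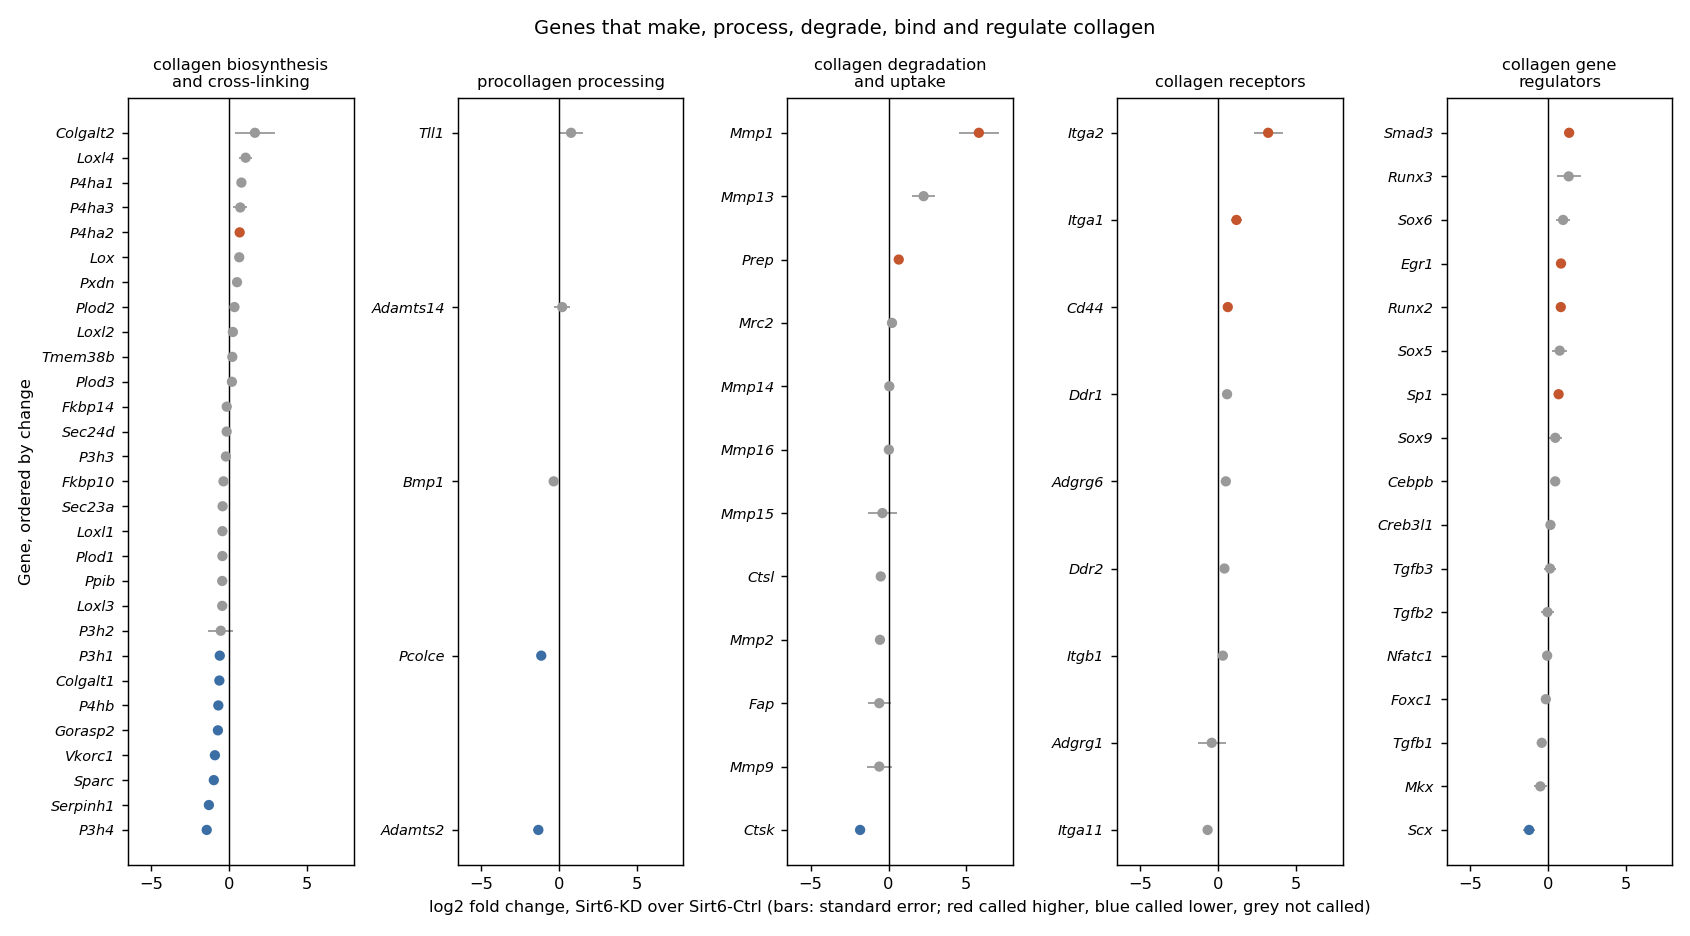
Log2 fold change, Sirt6-KD over Sirt6-Ctrl (horizontal axis), of the tested genes of the 5 lists around collagen, with standard errors as bars. Red genes were called higher and blue genes lower. Blue points lead in biosynthesis and processing, and red points in receptors and regulators.

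Promoter windows were found in RefSeq for 25 of the 30 chains, and those of Col1a1, Col3a1, Col6a2, Col12a1 and Col14a1 were not used. The GC box GGGCGG was in 16 of them (64.0%), beside 34.9% of 27457 promoters of the same length, counting either strand. The CCAAT box was in 7 (28%, beside 37.7%), the TATA box TATAAA in 2, Col1a2 and Col17a1 (8%, beside 14.3%), and the AP-1 element TGANTCA in 1, Col6a1 (4%, beside 7.3%). Col4a1 and Col4a2, whose windows share sites, are both among the 16 with a GC box and the 7 with a CCAAT box. No match of one kind overlapped a match of another kind. The median share of G and C was 61.0% in the chains and 52.3% in all promoters. By call it was 53.3% for the 3 chains that rose, 62.7% for the 3 with a window that fell and 61.5% for the 18 others with a test. All 3 of those that fell and 2 of those that rose, Col4a5 and Col18a1, held a GC box.

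Of 5 pairs of chains that directly follow each other by start among protein-coding genes, 3 had log2 fold changes of the same sign and 2 of opposite sign. Those of the same sign were Col4a1 and Col4a2 (0.08 and 0.47), Col4a3 and Col4a4 (-0.55 and -0.85) and Col6a1 and Col6a2 (-0.16 and -0.46). Col3a1 and Col5a2, neighbors on chromosome 9, had -1.38 and 0.40, of which the first passed. Col9a1 and Col19a1 are tail to tail on the same chromosome, where Col9a1 was called higher and Col19a1 had -2.14 and did not pass. Col4a5 and Col4a6, which lie head to head on chromosome X, were not among these 5 pairs. Their log2 fold changes were 0.88 and 0.84, of which the first passed. Whether neighbors differ from each other was not tested.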

How the data were processed

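RNA was sequenced from 8 libraries of primary rat nucleus pulposus cells. Per the submitters' processing notes, reads were trimmed with Trimmomatic 0.36, aligned with STAR 2.5.2b to Rnor_6.0, counted per gene with featureCounts of Subread 1.5.2 and compared with DESeq2. The strand setting is not given in the sources used here, so overlapping and antisense genes share doubt. The raw counts deposited by the authors, 31994838 to 40124813 per library, were used as they stand. The authors' comparison table was used only for gene names. Its normalized signal, log2 fold changes and p-values, deposited by the authors as the result of their own comparison, were not used.

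Counts were analysed in R 4.3.3 with edgeR 4.0.16 (filterByExpr, TMM factors, glmQLFit, glmQLFTest) on all 32975 rows, of which 13313 passed the filter, 63 of them spike-ins, and p-values were adjusted over these 13313 by Benjamini-Hochberg. Calls needed an adjusted p under 0.05 and a fold over 1.5, the thresholds of the study. SE is the log2 fold change over the root of F. Chain ratios had 0.5 reads added to each chain and were tested by exact two-sided permutation, adjusted over 15 pairs. The fit was tested on simulated counts with known changes. Intervals and floors cover counting error only. Other scalings, filters, DESeq2 1.42.0, limma-voom (limma 3.58.1), glmTreat and fits without single libraries were tried. Shares of called members are given beside those of all genes, with no test of a list.

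The members and lists were chosen with earlier results of these data known. The genes named were all chains, Sirt6 and, of each list, up to 3 called members of each direction with the smallest p, markers that show which cells are present, with library values for called chains and for the 10 chains of highest mean CPM. Library values of Col14a1, and the genes P4ha1, Lox, Bmp1, Mmp13, Ddr1, Ddr2, Sp1, Tgfb1, Tgfb2, Tgfb3 and the other 5 biosynthesis genes that fell, were added after their values were seen. The values of Basp1, Car12, Spp1, Alpl, Ibsp, Tnc, Thy1, Cd14, Cd68 and Csf1r were added likewise.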

Additional observations from a re-analysis of the deposited data

Results flagged for a closer look

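Across the chains, named list genes, chain ratios and the collagen share, 13 of 126 groups of 4 libraries held a library far from the other 3 by Dixon's ratio of gap to range (above its 95% critical value), where chance flags about 1 in 20, or 6.3. In Sirt6-KD, S8 was the far, highest library for Col6a1 (0.974), Col3a1 (0.961), P3h4 (0.896), Itga1 (0.887), the log2 ratio of Col1a1 to Col1a2 (0.977) and the collagen share of gene counts (0.837). S7 was the highest for Itga2 (0.831) and for Col15a1 (1), which rests on 2 reads, and S6 the lowest for Col4a3 (0.912), which rests on 4 to 30 reads. In Sirt6-Ctrl, S3 was the highest for Col16a1 (0.836), S4 for Col15a1 (0.912), with 71 reads, and S1 for Mmp1 (1), with 1 read, while S1 was the lowest for Egr1 (0.904).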

How the results depend on the processing

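No paired analysis was possible because neither the labels nor the count columns carry a rat number shared between groups. Scaled to the spike-ins, 0 chains were called higher and 0 lower, 0 list genes higher and 0 lower, and Sirt6 had a log2 fold change of -0.36 (adjusted p = 0.567). Tested against the fold of 1.5 itself (glmTreat), 0 chains were higher and 1 lower, and 0 list genes higher and 3 lower. Without S1 and S2, 0 chains were higher, and 5 list genes were higher and 7 lower. Without single libraries, chains called higher ran from 0 to 4 and lower from 2 to 5, list genes higher from 4 to 15 and lower from 5 to 12, and ratios whose groups did not overlap from 4 to 7, with 7 also without S1 and S2 and without S4 and S8. With no fold threshold 6 chains were lower. With no filter on counts 2 chains were higher and 3 lower (Col9a1 and Col11a2 were lost). The causes were not tested.

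Directions reversed only for values that were not called, except P4hb. With spike-in scaling, against a median of 0.94 over all genes, these were Col6a1 (0.70), Col6a2 (0.54), Col1a1 (0.24), Col5a1 (0.42), Col8a2 (0.64), Col1a2 (0.61), Col9a2 (0.27), Col11a1 (0.70), Col14a1 (0.29) and P4hb (0.34). By limma-voom they were Col1a2 (0.018), Col9a2 (0.41) and Col4a3 (0.27). Without S1 and S2 they were Col19a1 (0.59), Col4a1 (-0.23) and the ratio of Col4a3 to Col4a4 (-0.032). Without S4 and S8 they were Col1a2 (0.23), Col9a2 (0.49), Col4a4 (0.27) and the ratios of Col11a1 to Col5a1 (-0.019) and of Col4a3 to Col4a4 (-0.086). Without single libraries, the log2 fold change ran from -0.56 to 0.018 for Col5a1, from -0.29 to 0.17 for Col1a2, from -0.67 to 0.45 for Col9a2, from -1.23 to 0.15 for Col4a4, from -0.94 to 0.082 for Col4a3 and from -0.42 to 0.089 for Col11a1, each highest without S4, and from -0.083 (without S8) to 0.41 for Col4a1. The log2 ratio ran from -0.21 to 0.99 for Col4a3 to Col4a4 and from -1.36 to 0.36 for Col4a5 to Col4a6.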
